A study of Mus musculus with 5 samples.

Results

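Autophagy carries cytoplasm and organelles to the lysosome inside a double-membraned vesicle, and mitophagy is its selective form for mitochondria. The genes described here are 39 named components of this machinery, from the kinase that starts it to the receptors that select cargo. They form a fixed list of names, chosen with earlier results of these data known. Of the 39, 36 have a probe that names them alone among the 19057 genes measured. *Atg14*, *Optn* and *Pink1*, a subunit of the class III phosphatidylinositol 3-kinase complex, a cargo receptor and the kinase that marks damaged mitochondria, have no such probe and no value here.

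Lens RNA of newborn mice, at postnatal day 0, was hybridized to Illumina MouseWG-6 v2.0 bead arrays. The *Celf1* cKO/lacZKI group holds 3 arrays, lettered A, B and C, and the control group 2, lettered A and B, each a biological replicate that took 2 lenses. *Celf1* encodes an RNA-binding protein that acts on mRNA splicing, stability and translation. The mutants carry *Pax6GFPCre*, which removes a floxed *Celf1* exon in the developing lens from one allele, while the other allele carries a germline *lacZ* insertion in all tissues. In the labels and the array methods the controls are wild type, and the background of all animals is a mix of C57BL/6J and FVB. The general mouse methods instead give the controls as floxed animals, Cre carriers with intact *Celf1*, or both, so whether the control arrays carry a floxed allele or the driver is not settled here.

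Lens fiber cells lose their nuclei, mitochondria and endoplasmic reticulum as they mature, which leaves the center of the lens free of light-scattering organelles. Autophagy proceeds in steps. A kinase complex around Ulk1 and a lipid kinase complex around Beclin 1 start a membrane, Atg9 and Atg2 proteins supply it with lipid, and 2 conjugation systems attach Atg8 proteins (LC3 and GABARAP) to it. Receptors such as p62, the product of *Sqstm1*, link ubiquitinated cargo to the Atg8 proteins and are themselves degraded with it. In mice, Bnip3l, also called Nix, is a receptor on the outer mitochondrial membrane that serves the removal of mitochondria in maturing red blood cells and in the lens. Arrays measure transcripts only and give no reading of autophagic activity.

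Of the 6 members that passed the adjusted threshold in the comparison below, the promoters of 5 are in the RefSeq promoter table (GRCm38.p6), and *Bnip3l* is not. The 150 bases directly upstream of each annotated start are given on the strand of the gene, 5′ to 3′, because these are the members whose transcripts moved. Capitals mark the hexamer GGGCGG or its reverse complement CCGCCC, the GC box, and CACGTG, the E-box bound by Tfeb and related factors. *Ulk1* lies at chr5:110810082-110810231 on the minus strand, *Atg2b* at chr12:105685242-105685391 on the minus strand, *Atg5* at chr10:44268189-44268338 on the plus strand, *Sqstm1* at chr11:50210821-50210970 on the minus strand and *Gabarapl2* at chr8:111940553-111940702 on the plus strand.
Ulk1: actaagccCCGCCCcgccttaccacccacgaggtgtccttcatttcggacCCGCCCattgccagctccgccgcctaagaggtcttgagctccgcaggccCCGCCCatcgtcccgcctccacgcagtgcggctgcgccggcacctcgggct
Atg2b: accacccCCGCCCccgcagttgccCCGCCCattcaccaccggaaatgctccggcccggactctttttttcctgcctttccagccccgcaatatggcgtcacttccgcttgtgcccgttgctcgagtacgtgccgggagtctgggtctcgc
Atg5: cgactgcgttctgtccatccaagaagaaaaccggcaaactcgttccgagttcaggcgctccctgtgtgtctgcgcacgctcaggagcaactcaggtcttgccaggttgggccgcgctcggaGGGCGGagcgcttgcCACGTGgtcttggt
Sqstm1: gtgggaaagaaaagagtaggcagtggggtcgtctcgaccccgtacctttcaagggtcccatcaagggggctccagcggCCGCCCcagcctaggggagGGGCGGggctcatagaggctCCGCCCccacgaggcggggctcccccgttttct
Gabarapl2: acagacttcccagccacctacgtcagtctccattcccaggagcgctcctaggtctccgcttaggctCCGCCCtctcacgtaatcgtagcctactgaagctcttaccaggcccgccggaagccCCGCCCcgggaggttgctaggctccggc
The GC box was present in all 5 of these stretches, with 3 copies in *Ulk1*, 2 in *Atg2b*, 1 in *Atg5*, 3 in *Sqstm1* and 2 in *Gabarapl2*, and CACGTG was present in *Atg5* alone.

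Promoters were found for 29 of the 36 measured members, 35 promoters in all since some genes have more than 1. Both strands of the 250 bases upstream of each start were searched. The GC box was in 20 of the 35 (57.1%), against 32.7% of all 32851 promoters in the table. CACGTG was in 4 member promoters (11.4%), those of *Atg3*, *Atg5*, *Atg7* and *Bnip3*, against 6.02% of all. The antioxidant response element core TGACNNNGC was in 2 (5.71%), those of *Atg13* and *Ulk2*, against 10.2% of all, and the element TGATGNAAN that binds C/EBP-ATF dimers was in 0, against 3.44% of all. These letter matches are descriptions of the windows and overlap with no other motif searched in the stretches printed above.

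Intensities were background corrected and normalized by the authors and are on a linear scale. Each gene is represented by its brightest probe. Log2 fold changes and folds are given after a constant of 36.5 was added to every value. The constant understates changes, most of all for dim genes but also for brighter ones such as *Ulk1*, *Atg2b* and *Atg5*. Array medians were 5.6 to 7.2 on mutant arrays and 6.3 to 6.7 on control arrays, and genes with a mean intensity under 20 over the 5 arrays are called dim, which holds for 58.3% of all genes and for 9 of the 36 members (*Rb1cc1*, *Pik3r4*, *Atg7*, *Atg4a*, *Atg4b*, *Atg4c*, *Gabarapl2*, *Bnip3* and *Tfeb*). *Celf1* itself read 167.4, 172.7 and 154.2 in mutant lenses and 515.7 and 460.7 in control lenses. Whether its probe falls within the deleted exon is not known here. The mutant arrays differ among themselves in sex-linked genes. On mutant arrays A, B and C, *Xist*, the RNA that silences one X chromosome, read -0.3, -0.9 and 263.5, against 432.4 and 440.6 in control lenses. Y-linked *Eif2s3y* read 206.9, 177.3 and 4.4 on the same mutant arrays, against 2.5 and 1.1 in control lenses. Mutant arrays A and B thus differ from both controls in these genes. In the comparison of all 5 arrays, genotype and this pattern cannot be fully told apart.

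In *Celf1* cKO/lacZKI lenses 4 autophagy transcripts rose and 2 fell, each from a different group of the steps described below. *Sqstm1* had the largest change, 3.47-fold, followed by *Atg5* with 2.01-fold, and *Atg2b* and *Ulk1* rose by about 1.54-fold each. *Bnip3l* fell, with its call lost under 5 of 14 alternative settings. *Gabarapl2*, a dim gene, fell too, with its call lost under 11 of 13. All these calls are 6 of 36 members (16.7%) at an adjusted p under 0.05 by limma, against 5.82% of all 19057 genes. In each direction they are 4 higher, against 3.15% of all genes, and 2 lower, against 2.68%. Dim genes seldom pass, and among genes that are not dim the shares were 5 of 27 members (18.5%) and 13.6% of 7955 genes. At an unadjusted p under 0.05 there were 6 higher and 5 lower, against 17.8% of all genes in either direction. The mutant arrays all lay on one side of both control arrays for 16 members (44.4%), against 33.6% of all genes. Dim genes are 58.3% of all genes but 9 of the 36 members. The shares at an unadjusted p and without overlap were not compared among genes that are not dim. The median log2 fold change of the members was 0.03, beside -0.0027 for all genes, with 19 above and 17 below 0. In whole lenses, fewer cells of a type and less RNA per cell cannot be told apart.

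**Figure D1:**
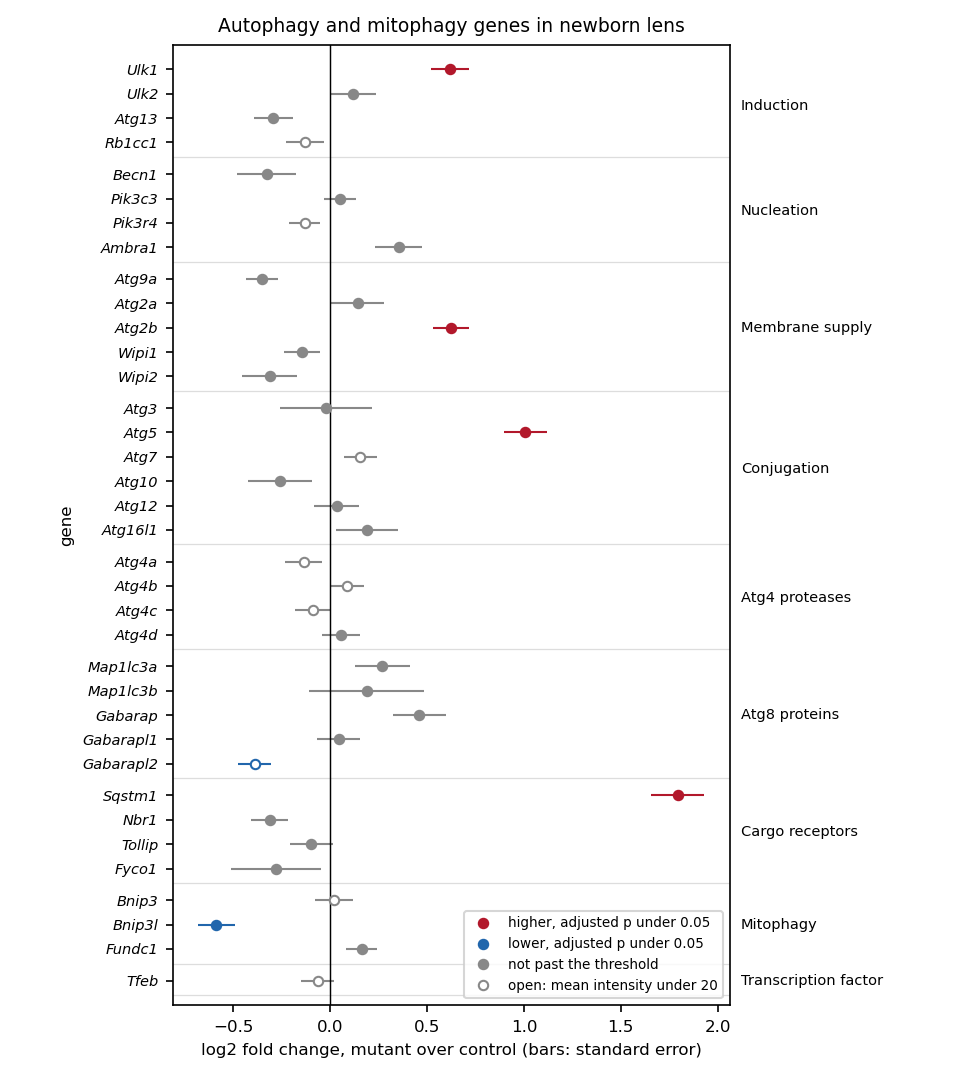
Log2 fold change of each of the 36 measured members, mutant over control, with its standard error from limma, grouped by step of the pathway. *Sqstm1* stands at 1.79 and *Atg5* at 1.01, while 30 members are not past the threshold and lie between -0.35 and 0.46.

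Among the 4 genes of the Ulk1 kinase complex, which receives signals of nutrient and energy state and starts autophagy, 1 rose. *Ulk1*, the kinase itself, read 200.1, 168.8 and 191.8 in mutant lenses and 101.8 and 116.0 in control lenses. The lowest mutant array was above the higher control array. Its log2 fold change was 0.62 (standard error 0.10, adjusted p = 0.0119), and a second *Ulk1* probe rose by 0.60 (adjusted p over all 34885 probes with 1 gene = 0.0128), with 116.9, 131.7 and 128.2 in mutant lenses and 62.7 and 78.1 in control lenses. Its paralog *Ulk2* showed a log2 fold change of 0.12 (adjusted p = 0.687) with overlapping groups, and its second probe one of -0.21. *Atg13*, the adaptor that holds the complex together, read 169.4, 183.1 and 190.6 in mutant lenses and 208.1 and 254.2 in control lenses, without overlap, and its log2 fold change of -0.29 did not pass (adjusted p = 0.168). *Rb1cc1*, the scaffold FIP200, was dim on all 3 of its probes.

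None of the 4 measured genes of the class III phosphatidylinositol 3-kinase complex and its regulator passed the threshold, and 1 had an unadjusted p under 0.05. *Becn1*, which encodes the core subunit Beclin 1, read 155.0, 159.4 and 222.0 in mutant lenses and 206.7 and 258.1 in control lenses. Mutant array C lay between the controls and mutant arrays A and B below both. The log2 fold change was -0.33 (standard error 0.15, adjusted p = 0.323). A dimmer *Becn1* probe read 40.4, 28.5 and 10.5 in mutant lenses and 56.9 and 57.9 in control lenses, a log2 fold change of -0.61 that also missed the threshold over probes (adjusted p = 0.146). *Ambra1*, a scaffold that binds Beclin 1, showed a log2 fold change of 0.35 (adjusted p = 0.163) without overlap of the groups, the lipid kinase *Pik3c3* one of 0.05, and its dim partner *Pik3r4* one of -0.13.

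In the group that supplies lipid to the growing membrane, *Atg2b* rose and the other 4 genes did not pass. *Atg2b*, one of a pair of genes for lipid transfer proteins, read 247.2, 207.6 and 231.7 in mutant lenses and 140.6 and 130.2 in control lenses, with every mutant array above both controls. Its log2 fold change was 0.62 (standard error 0.09, adjusted p = 0.0103). Another *Atg2b* probe had 0.40 and missed the threshold over probes (adjusted p = 0.0788), and the remaining 2, both dim, had -0.03 and -0.04. The mean of all 4 probes gave 0.24 (adjusted p = 0.122). The paralog *Atg2a* had 0.14 (adjusted p = 0.679), and its other 2 probes that are not dim had the opposite sign, -0.09 and -0.18. *Atg9a*, the transmembrane protein of the vesicles that seed the membrane, was closest to the threshold of the members that missed it. It read 40.2, 44.7 and 42.5 in mutant lenses and 59.9 and 69.0 in control lenses, without overlap, and differed by -0.35 on the log2 scale (standard error 0.08, adjusted p = 0.0542). *Wipi2*, which recruits the Atg16l1 complex to the membrane, had -0.31 on its brightest probe (adjusted p = 0.309). That probe read 217.3, 252.1 and 320.7 in mutant lenses and 324.2 and 340.4 in control lenses. A second probe, with 137.6, 139.1 and 149.5 in mutant lenses and 196.8 and 187.6 in control lenses, fell by 0.36 (adjusted p over probes = 0.0467). Its call held with array weights, median centring and the replicate block. It was lost with a constant of 16, quantile normalization, the intensity trend, dim probes left out, or any mutant array left out. *Wipi1* had -0.15.

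Of the 6 genes for the enzymes that attach Atg12 to Atg5 and Atg8 proteins to lipid, *Atg5* rose. Atg5 protein, joined to Atg12 and bound to Atg16l1, sets where Atg8 proteins are attached. *Atg5* read 343.2, 341.2 and 273.6 in mutant lenses and 144.0 and 135.7 in control lenses. Both control arrays lay well below the lowest mutant array. The log2 fold change was 1.01 (standard error 0.11, adjusted p = 0.00419), and the second probe, with 326.8, 280.2 and 286.3 in mutant lenses and 138.5 and 153.6 in control lenses, rose by 0.87 (adjusted p over probes = 0.00363). Its partners did not pass the threshold. *Atg12* had a log2 fold change of 0.03 and *Atg16l1* one of 0.19. The E2-like enzymes *Atg3* and *Atg10* had -0.02 and -0.26, and the E1-like enzyme *Atg7*, which was dim, had 0.16. The 4 *Atg4* proteases, which trim Atg8 proteins before attachment and release them afterwards, lay between -0.14 and 0.09, with overlapping groups in all 4 and 3 of them dim.

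**Figure D2:**
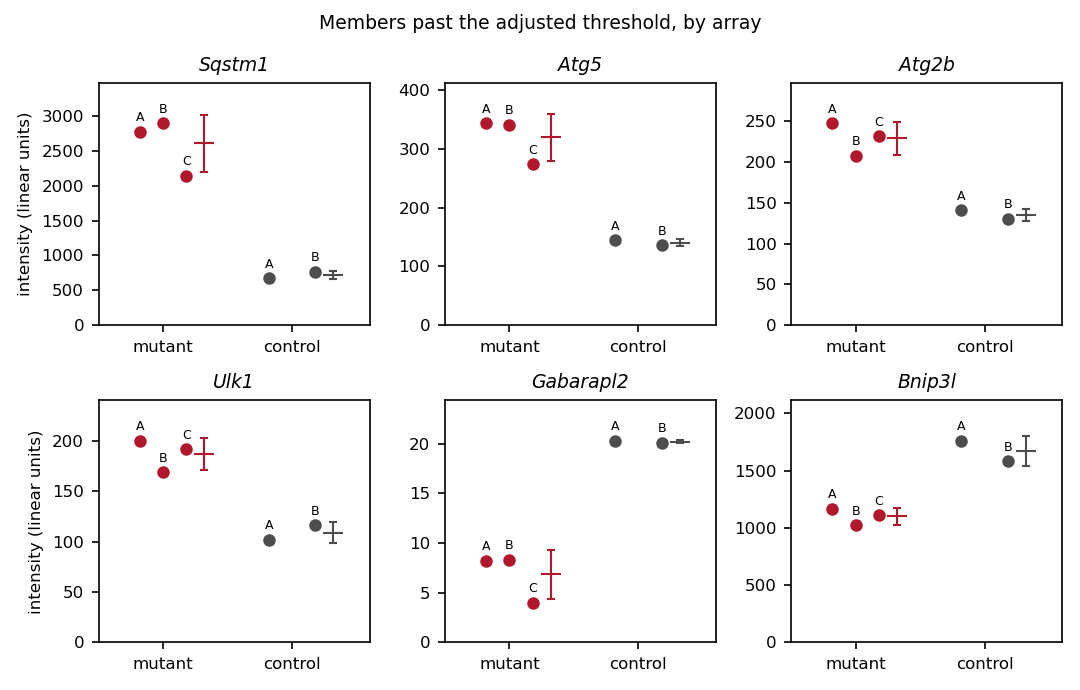
Intensity on each array for the 6 members past the adjusted threshold, mutant (left, red) and control (right, grey), with the group mean and SD beside the points. No mutant array overlaps a control array in any panel, and the values of *Gabarapl2* all lie at or below 20.3.

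The Atg8 proteins, which coat the membrane and bind cargo receptors, gave 1 lower call of 5, on a dim gene. *Gabarapl2* read 8.2, 8.3 and 4.0 in mutant lenses and 20.3 and 20.1 in control lenses. It fell by 0.39 on the log2 scale (standard error 0.08, adjusted p = 0.0411). Its other 2 probes, both dim, had 0.22 and -0.05, and the call was lost under 11 of the 13 alternative settings that tested it, with adjusted p-values of up to 0.663. *Gabarap* read 2074.3, 2034.3 and 1757.7 in mutant lenses and 1628.6 and 1215.9 in control lenses, and its log2 fold change of 0.46 missed the threshold (standard error 0.14, adjusted p = 0.115). *Gabarapl1* had 0.04, with overlapping groups.

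Of the LC3 genes, *Map1lc3a* read 93.1, 73.6 and 67.1 in mutant lenses and 46.2 and 71.6 in control lenses. The groups overlapped on mutant array C, and the log2 fold change was 0.27 (standard error 0.14, adjusted p = 0.403). A dimmer *Map1lc3a* probe, with 35.0, 37.1 and 44.5 in mutant lenses and 19.5 and 15.6 in control lenses, rose by 0.48 (adjusted p over probes = 0.0260). On the log2 scale *Map1lc3b* spread more among the mutant lenses than any other member, with 168.8, 132.1 and 55.8, against 100.6 and 85.3 in control lenses. Mutant arrays A and B were above both controls and mutant array C below both, and the log2 fold change was 0.19 (standard error 0.30, adjusted p = 0.820).

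Among 4 measured cargo receptors and adaptors, *Sqstm1* rose. It read 2777.5, 2895.2 and 2146.5 in mutant lenses, a mean of 2606 ± 403 (SD, n = 3), and 677.8 and 764.1 in control lenses, a mean of 721 ± 61.0 (SD, n = 2). The lowest mutant array was above both controls by more than the whole spread of either group. The log2 fold change was 1.79 (standard error 0.14, adjusted p = 0.00154). The study's heat map of changed genes, drawn from these same arrays, includes *Sqstm1*, so its direction here is not independent evidence, and it has a single probe. *Nbr1*, a receptor of related build, read 61.2, 48.1 and 48.4 in mutant lenses and 76.9 and 70.9 in control lenses, without overlap, and its log2 fold change of -0.31 did not pass (adjusted p = 0.123). *Tollip*, a ubiquitin-binding receptor, had -0.10, and *Fyco1*, an adaptor that links autophagosomes to kinesin and whose human gene is mutated in inherited cataract, had -0.28 (standard error 0.23). *Fyco1* spread widely, with 93.4, 73.2 and 51.9 in mutant lenses and 65.4 and 132.3 in control lenses.

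Of the mitophagy receptors *Bnip3l* fell, and the other 2 measured did not pass. *Bnip3l* read 1168.6, 1021.4 and 1108.3 in mutant lenses, a mean of 1099 (SD 74.0, n = 3), and 1761.4 and 1580.0 in control lenses, a mean of 1671 ± 128 (SD, n = 2). The highest mutant array was below both controls. It fell by 0.59 on the log2 scale (standard error 0.09, adjusted p = 0.0135) on its single probe, and the call was lost under 5 of 14 alternative settings, with adjusted p-values of up to 0.0712. Its relative *Bnip3*, a hypoxia-induced receptor, was dim, with 0.9, 4.1 and 2.6 in mutant lenses and -1.1 and 5.4 in control lenses, a log2 difference of 0.02 (standard error 0.10, adjusted p = 0.958). *Fundc1*, an X-linked mitophagy receptor, read 260.4, 275.4 and 281.2 in mutant lenses and 247.6 and 231.4 in control lenses, without overlap, and its log2 fold change of 0.16 did not pass (adjusted p = 0.370). *Tfeb*, a transcription factor of autophagy and lysosome genes, was dim, with 5.8, 5.7 and 4.2 in mutant lenses and 4.8 and 9.6 in control lenses (log2 fold change -0.06, standard error 0.09, adjusted p = 0.775).

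**Figure D3:**
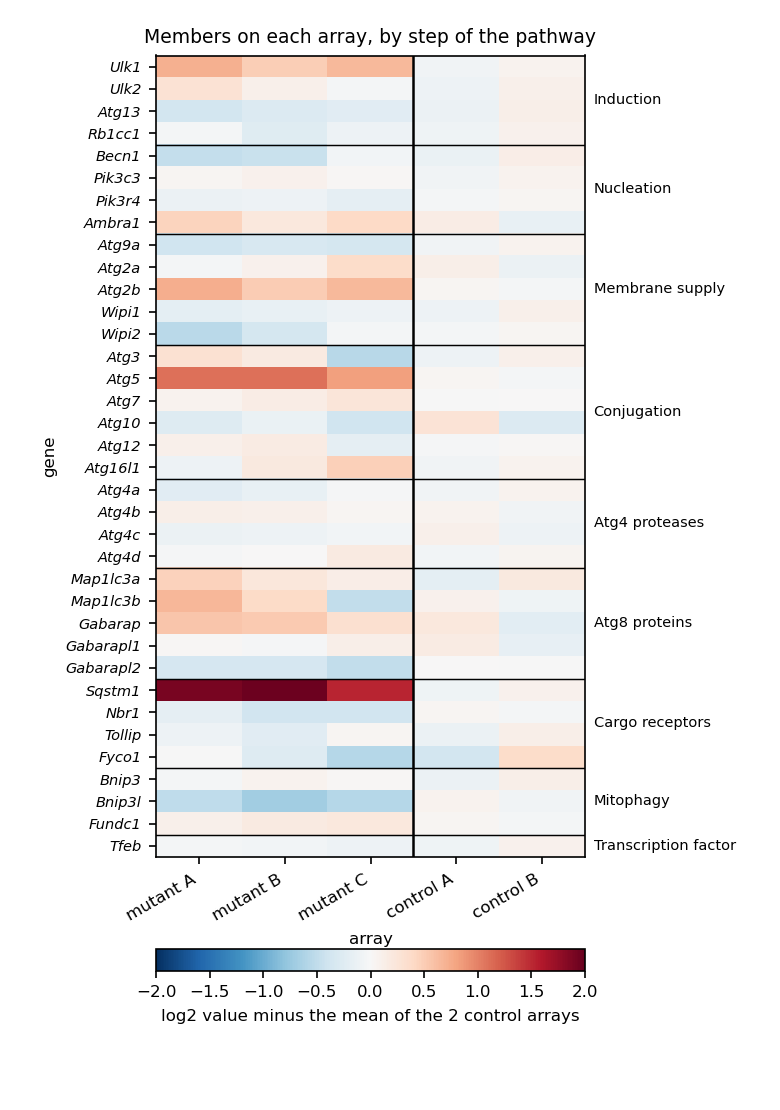
Log2 value of each member on each of the 5 arrays minus the mean of the 2 control arrays, grouped by step of the pathway. *Sqstm1*, *Atg5*, *Atg2b* and *Ulk1* are above the control mean on all 3 mutant arrays, and *Map1lc3b* and *Atg3* are above it on mutant arrays A and B and below it on mutant array C.

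Because mutant array C differs from mutant arrays A and B in sex-linked genes and is nearer to the controls in them, the members were also read against the controls separately for these arrays. With mutant array C alone, whose spread is then taken to be that of the control arrays, 4 members passed (*Ulk1*, *Atg2b*, *Atg5* and *Sqstm1*), against 5.44% of all genes. *Sqstm1* showed a log2 fold change of 1.53 (adjusted p = 0.00142), *Atg5* one of 0.81 (adjusted p = 0.0155), *Ulk1* one of 0.65 (adjusted p = 0.0433) and *Atg2b* one of 0.64 (adjusted p = 0.0419). *Bnip3l* kept its size, with -0.57 on mutant array C and -0.59 on mutant arrays A and B, and passed only with the pair (adjusted p = 0.0712 and 0.0201). In 6 of the 36 members the sign differed between mutant arrays A and B and mutant array C. *Map1lc3b* had 0.53 on mutant arrays A and B (adjusted p = 0.0515) and -0.49 on mutant array C (adjusted p = 0.130). *Atg3* had 0.24 and -0.55, and *Ulk2*, *Atg12*, *Atg4d* and *Tollip* differed in sign with values between -0.17 and 0.20. *Becn1* had -0.47 on mutant arrays A and B (adjusted p = 0.0587) and -0.05 on mutant array C, and *Wipi2* had -0.45 (adjusted p = 0.0450) and -0.05. The difference between the mutant arrays was not tested.

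The 36 members have 77 probes, of which 33 are dim. Over all probes 10 passed the threshold, 7 higher and 3 lower, against 4.28% of all probes. Besides the brightest probes of the 6 called members these are second probes of *Ulk1*, *Atg5*, *Map1lc3a* and *Wipi2*, all in the direction of the brightest probe. Among 14 members with another probe that is not dim there are 17 such probes, and 14 of them share the sign of the brightest probe. The exceptions are both such probes of *Atg2a* and that of *Ulk2*. A probe that names both *Cntd1* and *Becn1* was left out.

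**Figure D4:**
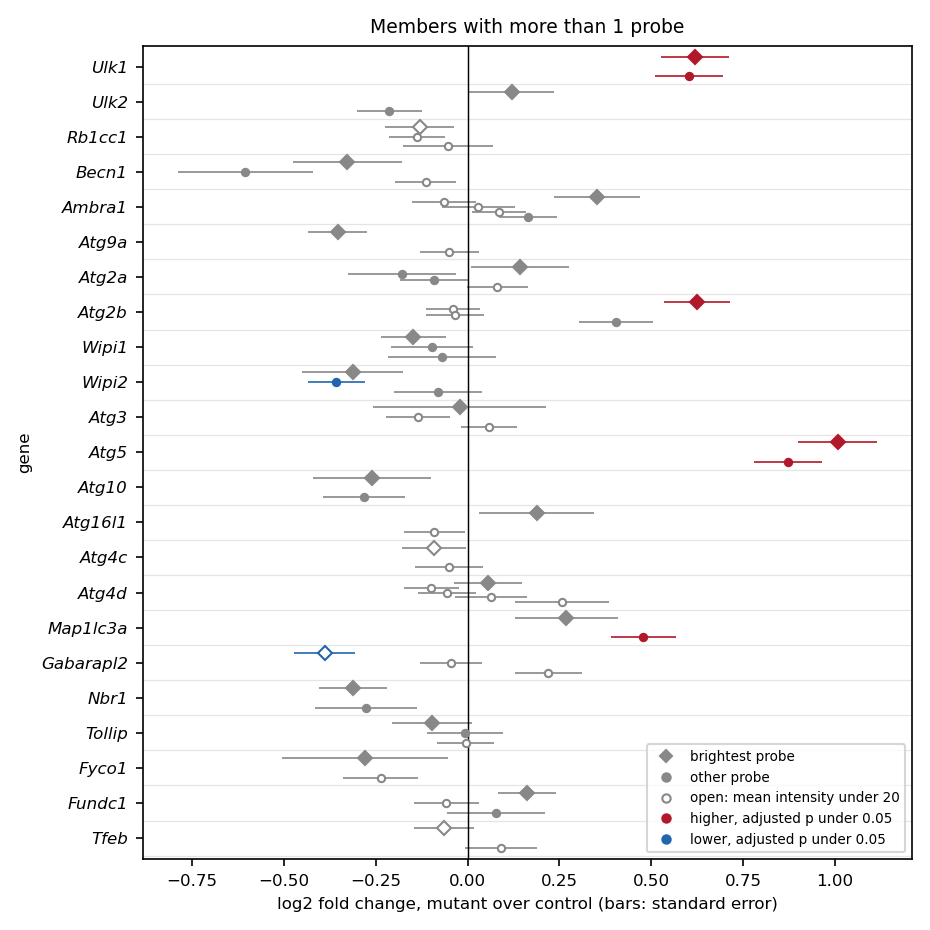
Log2 fold change, mutant over control, with its standard error for every probe of the 23 members with more than 1 probe, diamonds for the brightest probe and circles for the others, open where the mean intensity is under 20. Both *Ulk1* probes lie near 0.6 and both *Atg5* probes above 0.8, while the 3 *Gabarapl2* probes, all dim, lie on both sides of 0.

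Outside the members, 68 further genes of the pathway were measured, from the mTOR and AMPK kinases that regulate it to the fusion of autophagosomes with lysosomes. Of these, 9 passed the threshold (13.2%, against 5.82% of all genes), 4 higher and 5 lower, and 30 did not overlap (44.1%, against 33.6% of all genes). The 68 genes were chosen with earlier results of these data known, so these shares are not independent evidence. Only 7 of the 68 are dim, and among genes that are not dim the shares called were 9 of 61 (14.8%) and 13.6% of all such genes. The share without overlap was not compared among genes that are not dim. Their median log2 fold change was 0.02. Of 15 mTOR and AMPK genes 2 fell, of 12 further nucleation and membrane genes 2 rose, of 11 selective receptors and chaperones 1 rose and 1 fell, of 8 further mitophagy genes 1 fell, of 14 fusion genes 1 fell, and of 8 transcription and p53-linked genes 1 rose.

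*Hspb8*, a small heat shock protein that works with Bag3 to send misfolded proteins to autophagy, read 1941.3, 1970.0 and 1426.4 in mutant lenses and 179.3 and 140.7 in control lenses. It had the largest log2 fold change of these genes, 3.20 (standard error 0.16, adjusted p = 6.13e-04), and like *Sqstm1* it is in the study's heat map of changed genes. Its partner *Bag3*, named here after its values were seen, read 243.8, 169.3 and 214.7 in mutant lenses and 214.1 and 249.6 in control lenses, with overlapping groups and a log2 fold change of -0.14 (adjusted p = 0.699). *Trp53inp1*, a p53-induced protein that binds Atg8 proteins, read 162.1, 148.6 and 208.3 in mutant lenses and 46.4 and 10.7 in control lenses, a log2 fold change of 1.73 (adjusted p = 0.00715). *Atg101*, the partner of Atg13 in the Ulk1 complex, rose by 0.50 (adjusted p = 0.0214), with 505.1, 533.5 and 572.4 in mutant lenses and 387.1 and 352.6 in control lenses. *Ei24*, a protein of the endoplasmic reticulum membrane needed for autophagy, rose by 0.46 (adjusted p = 0.0351).

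Of the genes that fell, *Bcl2l13*, a mitophagy receptor of the outer mitochondrial membrane, read 521.7, 568.2 and 447.0 in mutant lenses and 1112.0 and 926.1 in control lenses. It fell by 0.94 on the log2 scale (standard error 0.12, adjusted p = 0.00705), but the mean of all its probes had -0.25 (adjusted p = 0.275). *Tsc2*, whose product restrains mTORC1, read 1852.7, 2661.9 and 2000.9 in mutant lenses and 3832.4 and 3806.2 in control lenses, and fell by 0.82 (adjusted p = 0.0217). *Rptor*, the scaffold of mTORC1, fell by 0.44 on its brightest probe (adjusted p = 0.0321), and the mean of all its probes had a log2 difference of -0.05 (adjusted p = 0.795). Products of these 2 genes act on mTORC1 in opposite ways, one restraining it and the other forming part of it. *Plekhm1*, an adaptor between lysosomes and Atg8 proteins, fell by 0.79 (adjusted p = 0.0488), with 138.5, 124.4 and 126.5 in mutant lenses and controls far apart at 325.6 and 190.5. Without control array A the log2 difference of *Plekhm1* was -0.45 (adjusted p = 0.0728). *Ccpg1*, a receptor for autophagy of the endoplasmic reticulum, fell by 0.42 (adjusted p = 0.0304), against -0.22 with the mean of all its probes (adjusted p = 0.108).

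Of these 9 genes *Hspb8* and *Trp53inp1* passed in all 14 alternative settings, *Bcl2l13* in 13, *Tsc2* in 11, *Atg101* in 9, *Plekhm1* in 8 and *Rptor*, *Ei24* and *Ccpg1* in 5 each. Leaving out mutant array A or mutant array B gave 5 calls each, and leaving out mutant array C gave 8. Over all 19057 genes the calls were 763, 604 and 1179 in these 3 settings, beside 1110 with all arrays. Without either control array, which leaves a single control, fewer of these genes and fewer of all genes passed.

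**Figure D5:**
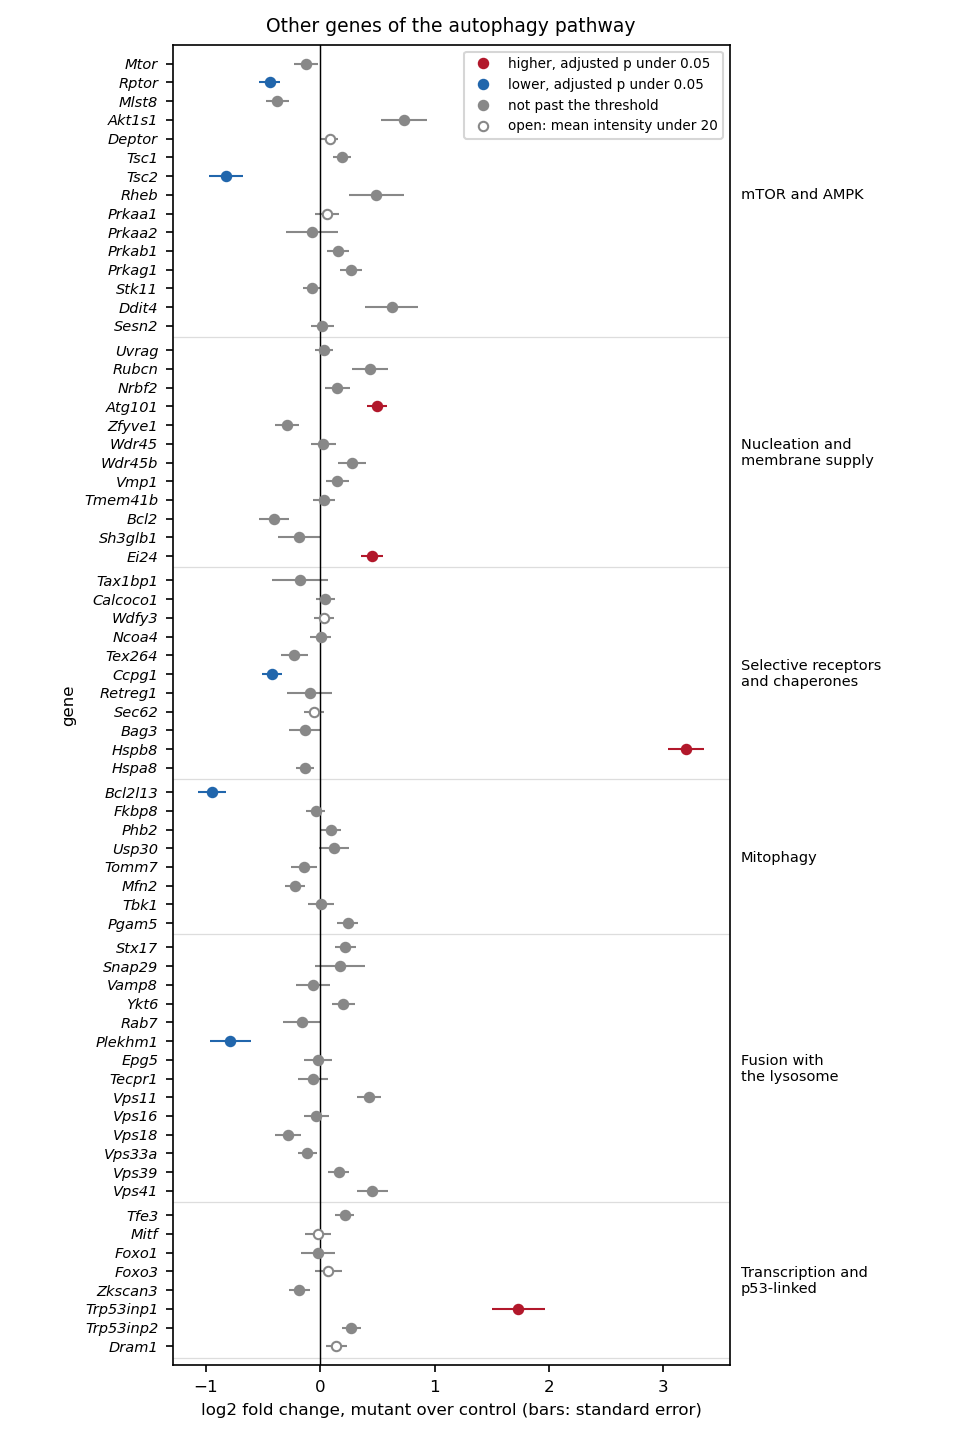
Log2 fold change, mutant over control, with its standard error from limma for the 68 further pathway genes measured, grouped by role. *Hspb8* at 3.20 and *Trp53inp1* at 1.73 lie apart on the right, and *Bcl2l13*, *Tsc2* and *Plekhm1* between -0.94 and -0.79 on the left.

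The 7 measured lens markers summed to between 92929 and 107677 in mutant lenses and between 110868 and 118561 in control lenses. Of these, 2 fell (*Bfsp2* and *Lim2*), and *Gja3* was near 0 on every array. The 7 lists for other tissues were red blood cells, blood vessels, leukocytes, pigment cells, retina, cornea with mesenchyme, and skeletal muscle. They gave 0 calls by limma, against 5.82% of all genes, and without adjustment 2 genes were higher and 1 lower at p under 0.05. All measured retina, leukocyte and cornea genes and 4 of 5 muscle genes are dim. Dim genes seldom pass, so 0 calls cannot show that other tissue was equal. Summed levels of the muscle, retina, leukocyte and cornea lists were between 13.6 and 48.1 on every array. The muscle, retina and cornea sums were higher on every mutant array than on both controls, and those of the other tissue lists overlapped. The red blood cell list summed to 4496, 1247 and 2027 in mutant lenses and 1433 and 1970 in control lenses, with mutant array A highest. The part of the lens and red blood cell differences in the results for *Bnip3l* and the other members was not tested.

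Leaving out single arrays moved the count of members called. Without either control array, which leaves a single control, fewer members and fewer of all genes passed. Without mutant array B 4 of 36 members passed (*Sqstm1*, *Atg5*, *Atg2b* and *Ulk1*). Over all 19057 genes 604 passed without mutant array B, beside 1110 with all arrays. *Sqstm1* passed in all 14 alternative settings, with log2 fold changes between 1.53 and 1.93. Since 5 arrays can be divided into groups of 3 and 2 in only 10 ways, the smallest two-sided p of an exact permutation test on 1 gene is 0.1, and so few arrays limit how precise any value is.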

How the data were processed

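Illumina MouseWG-6 v2.0 intensities of 5 lens arrays (3 mutant, 2 control) were corrected for background by the authors with the lumi package, normalized by the Rank Invariant method and deposited on a linear scale, 1 value per probe and array. No version of either tool is stated. The platform annotation ties 34885 of the 45281 probes to 1 gene. The 18 probes with several genes and 10378 with none were not used.

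A constant of 36.5 was added here to the deposited intensities, which puts the lowest at 16, and log2 was taken. For each of 19057 genes the probe with the highest mean log2 value was used. Since the methods name no test, groups were compared by limma 3.58.1 under R 4.3.3 (lmFit, then eBayes), two-sided and without a block, with Benjamini-Hochberg adjustment over all genes, or over all probes, and a threshold of 0.05. In a simulation of this design over 19057 genes, 97 of 100 genes changed by 1 on the log2 scale and 100 of 100 changed by -2 were recovered, and 12 unchanged genes were called. The simulation used independent normal noise and changed only genes with a mean above the median. It held no array effects and no sex difference, so it does not give the power for dim genes or for these arrays.

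The members, the other pathway genes, the marker lists and the alternatives were chosen with earlier results of these data known. Values on every array are given for members past the threshold and for *Map1lc3a*, *Map1lc3b*, *Becn1*, *Tfeb* and *Bnip3*, and for further members close to a call, widely spread or X-linked that were picked after their values were seen. Up to 10 other pathway genes past the threshold with the smallest p are named. Alternatives were array weights, a constant of 16, quantile normalization, the mean of all probes, median centring, a test without dim genes, robust moderation with an intensity trend, the letter as a block, mutant array C alone and each array left out in turn. Promoter sequences and their coordinates come from RefSeq (GRCm38.p6). The deposited array data name no genome build and hold no detection p. Plots were made in matplotlib 3.10.9 (Python 3.11.15).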

Additional observations from a re-analysis of the deposited data

How the results depend on the processing

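*Sqstm1* kept its direction and its call in all 14 alternatives (log2 fold change 1.53 to 1.93 and adjusted p 8.55e-05 to 0.0283 by limma, and 1.71 to 1.93 when single arrays were left out). The count of all genes called ranged from 223 to 1179 when each array was left out in turn (653 without control A, 223 without control B, 604 without mutant B), that of members from 1 to 6, that of other pathway genes from 4 to 8 and that of member probes from 4 to 8. The other pathway genes called were 5 with a constant of 16, and the member probes called were 4 with mutant array C alone. The cause of these differences in count was not tested. *Atg5* lost its call without control B (adjusted p = 0.0531), *Atg2b* without control B and with the mean of all probes (up to 0.122), and *Ulk1* without either control (up to 0.0675). The mean of all probes added *Becn1* and *Map1lc3a*. Over the 14 called genes other than *Sqstm1*, 132 of 195 alternatives kept the call, 63 lost it and 0 reversed. Deviations of same-lettered arrays from their group means had correlations of 0.003 and 0.025. The deviations of the 2 controls mirror each other, so these are not separate checks. They cannot decide whether the letters pair arrays. With the letter as a replicate block, 1275 genes, 9 members (adding *Becn1*, *Gabarap*, *Map1lc3b* and *Wipi2*, and losing *Gabarapl2*), 12 other pathway genes and 15 member probes passed, and *Sqstm1* had 1.93. Letter C occurs only among the mutant arrays, so the block takes every difference from mutant arrays A and B. Its log2 fold changes are those found without mutant array C, so these 2 of the 14 alternatives are not separate checks of effect size. The table has no detection p, so how far dim probes lie above background is unknown.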
